A study of Homo sapiens with 38 samples.

Results

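The 10 genes described here are targets of the endoplasmic reticulum (ER) stress response: HSPA5, HSP90B1, DNAJB9, DNAJC3, SDF2L1, PDIA4, PDIA6, CALR, HERPUD1 and XBP1. They were chosen by name, with earlier results of these data known, and all 10 were among the 12627 genes of the table. They were measured in HCT116, a human colorectal carcinoma cell line, 72 h after small interfering RNA (siRNA) duplexes had been used to silence VPS4A, VPS4B or both. VPS4A and VPS4B are paralogous ATPases that disassemble the ESCRT-III membrane-remodeling filaments. The question was what loss of one or both paralogs did to the mRNA of the ER chaperones.

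The libraries fell into 9 conditions. The controls were non-transfected cells (NT, n = 4) and cells with a non-targeting duplex, siCTRL#1 (60 nM, n = 5) or siCTRL#2 (n = 4, dose not given in the labels). A single paralog was silenced with 30 nM of siVPS4A#1, siVPS4A#2, siVPS4B#1 or siVPS4B#2 together with 30 nM of siCTRL#1 (n = 4 each). Both were silenced with 30 nM of each duplex: siVPS4A+B#1 combined siVPS4A#2 with siVPS4B#1, and siVPS4A+B#2 combined siVPS4A#1 with siVPS4B#2 (n = 4 each). Silencing was transient and in a single cell line. One library labelled siVPS4A#1 (replicate 2) was left out because the selection of samples excludes it. It held 669257 reads, and VPS4B was at 1.62 RPM (reads scaled to 1000000 per library) in it, against 14.3 to 38.8 in the other libraries that had received no VPS4B duplex.

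The ER folds secreted and membrane proteins. Unfolded protein in its lumen activates the sensors IRE1 (ERN1), PERK (EIF2AK3) and ATF6, and their transcription factors XBP1, ATF4 and cleaved ATF6 raise chaperones, disulfide isomerases and degradation factors. HSPA5, also called BiP or GRP78, is the ER's Hsp70 and also binds the sensors. Its mRNA is a widely used readout of the response.

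The ER stress response element (ERSE, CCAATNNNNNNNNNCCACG) and its shorter form ERSE-II (ATTGGNCCACG) are the sequences through which ATF6 and XBP1 act, so the stretches that hold them are shown for the genes on which the results turn. Both were searched on either strand in RefSeq promoters of 300 bases (250 before and 50 after the transcription start, GRCh38.p14), which were found for all 10 genes. For each of the 10 the first listed promoter was used, and whether it belongs to the measured transcript was not checked. Capitals mark both half-sites of ERSE or ERSE-II, and in DNAJB9, which has neither, the CCACG core that both elements contain.
HSPA5: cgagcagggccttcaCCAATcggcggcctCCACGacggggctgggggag
HSP90B1: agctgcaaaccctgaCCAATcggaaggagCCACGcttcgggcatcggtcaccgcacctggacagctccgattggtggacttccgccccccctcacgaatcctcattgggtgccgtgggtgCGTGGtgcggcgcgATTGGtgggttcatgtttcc
CALR: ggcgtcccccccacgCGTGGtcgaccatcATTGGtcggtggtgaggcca
XBP1: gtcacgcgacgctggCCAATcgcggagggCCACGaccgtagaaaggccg
HERPUD1: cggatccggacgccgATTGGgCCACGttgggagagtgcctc
SDF2L1: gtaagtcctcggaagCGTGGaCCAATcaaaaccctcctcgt
DNAJB9: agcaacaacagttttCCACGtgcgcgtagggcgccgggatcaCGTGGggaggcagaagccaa
These stretches lie at chr9:125241376-125241424 (HSPA5, minus strand), chr12:103930201-103930354 (HSP90B1, plus), chr19:12938369-12938417 (CALR, plus), chr22:28800588-28800636 (XBP1, minus), chr16:56932010-56932050 (HERPUD1, plus), chr22:21642099-21642139 (SDF2L1, plus) and chr7:108569785-108569846 (DNAJB9, plus), all upstream of the start.

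ERSE was found in 4 of the 10 promoters, against 0.0769% of 35116 RefSeq promoters and 0.147% of the 10206 promoters of genes in the table. It began 66 bases before the start in HSPA5, 52 in XBP1 and 225 in CALR (reverse strand), and HSP90B1 had a copy at 194 and a reverse one at 89. ERSE-II was found in HERPUD1, 117 bases before the start, and reversed in SDF2L1, 188 before it, against 0.0541% of all promoters and 0.108% of those of genes in the table. The CCACG core was present in 9 of the 10, all but PDIA6, against 38.1% and 50.2%. The UPRE core TGACGTGG had no match in the 10 windows, against 0.729% and 0.931%. The windows of DNAJC3 and PDIA4 held the core without either element. Because the 10 genes were chosen as known ER stress targets, these shares are a description and not a test.

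**Figure D1:**
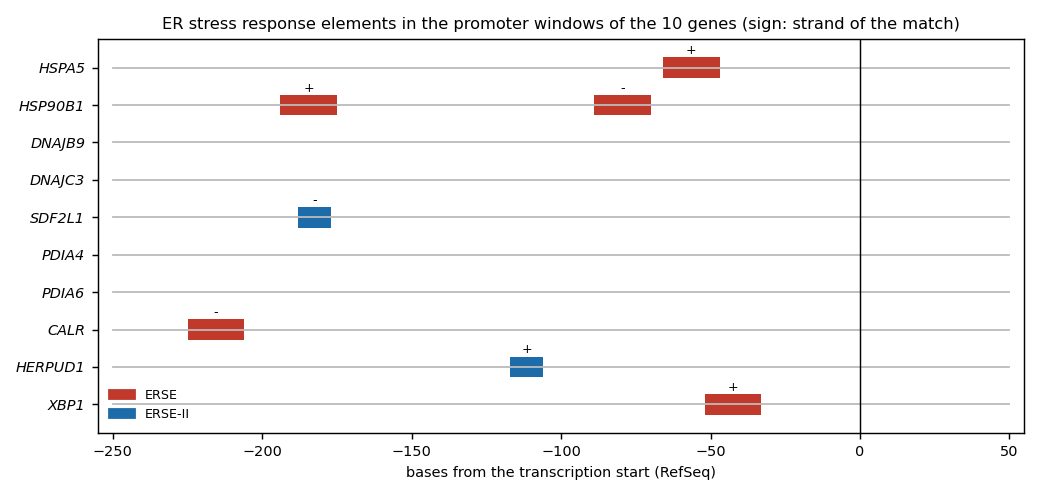
Position of ERSE (red) and ERSE-II (blue) in the 300-base promoter window of each gene, in bases from the RefSeq transcription start (x axis), with the strand of the match above each block. HSP90B1 holds 2 copies of ERSE, HSPA5, CALR and XBP1 hold 1 each, and SDF2L1 and HERPUD1 hold ERSE-II.

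All RPM levels are after TMM normalization, an edgeR scaling that assumes most genes do not change. The 37 libraries used held 5090666 to 11035293 reads (median 7561496), and a count of 3 reads corresponded to at most 0.589 RPM. VPS4A mRNA was at 1.63 to 33.9 RPM in the 16 libraries that received its duplex and at 172 to 325 in the 21 that did not. VPS4B was at 0.133 to 1.57 against 14.3 to 38.8. The epithelial markers EPCAM, KRT8, KRT18, KRT19 and CDH1 were present in every library (EPCAM 276 to 653, KRT8 1004 to 2550), the endothelial PECAM1 ran from 0 to 1.75. The fibroblast gene COL1A1 ran from 7.83 to 85.2, and 1 of these 2 markers of other cell types was higher than siCTRL#1 with siVPS4A#1, siVPS4B#1 and siVPS4A+B#2, whose part in the results was not tested.

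The broadest change in the ER stress targets was with siVPS4A#1 alone, where most of them fell. With the other VPS4A duplex, siVPS4A#2, none of the 10 passed the test against siCTRL#1. When both paralogs were silenced the genes split. HSP90B1 fell and DNAJB9 rose with both duplex pairs and against both controls. HSPA5 did not pass the test with either pair against these controls. Each pair contained a duplex, siVPS4B#1 or siVPS4A#1, that moved HSP90B1 and DNAJB9 the same way alone. All differences below are on a log2 scale of TMM-scaled RPM plus 1 and were tested with limma, blocked on the replicate number, with Benjamini-Hochberg adjustment over the 12627 genes. A gene was called at an adjusted p below 0.05.

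Against siCTRL#1, 8 of the 10 genes were lower and 1 was higher with siVPS4A#1, where 19.3% of all genes tested were lower and 17.7% higher. The median difference of the 10 was -0.67, against 0.01 over all genes. With siVPS4A#2, 0 of the 10 passed in either direction (0.0475% of all genes lower, 0.0396% higher), 0 did at an unadjusted p below 0.05, and edgeR and DESeq2 on the recovered reads also called 0. With siVPS4B#1, 3 were lower and 2 higher (11.7% and 10.4% of all genes), and with siVPS4B#2, 1 was lower and 1 higher (7.77% and 6.49%). With siVPS4A+B#1, 4 were lower and 2 higher (18.7% and 18.3%), and with siVPS4A+B#2, 4 were lower and 1 higher (23.6% and 21.6%). The 8 of 10 lower with siVPS4A#1 stand beside 1 to 4 of 10 in the other comparisons that had any. The medians with the combined duplexes were -0.28 and -0.29.

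**Figure D2:**
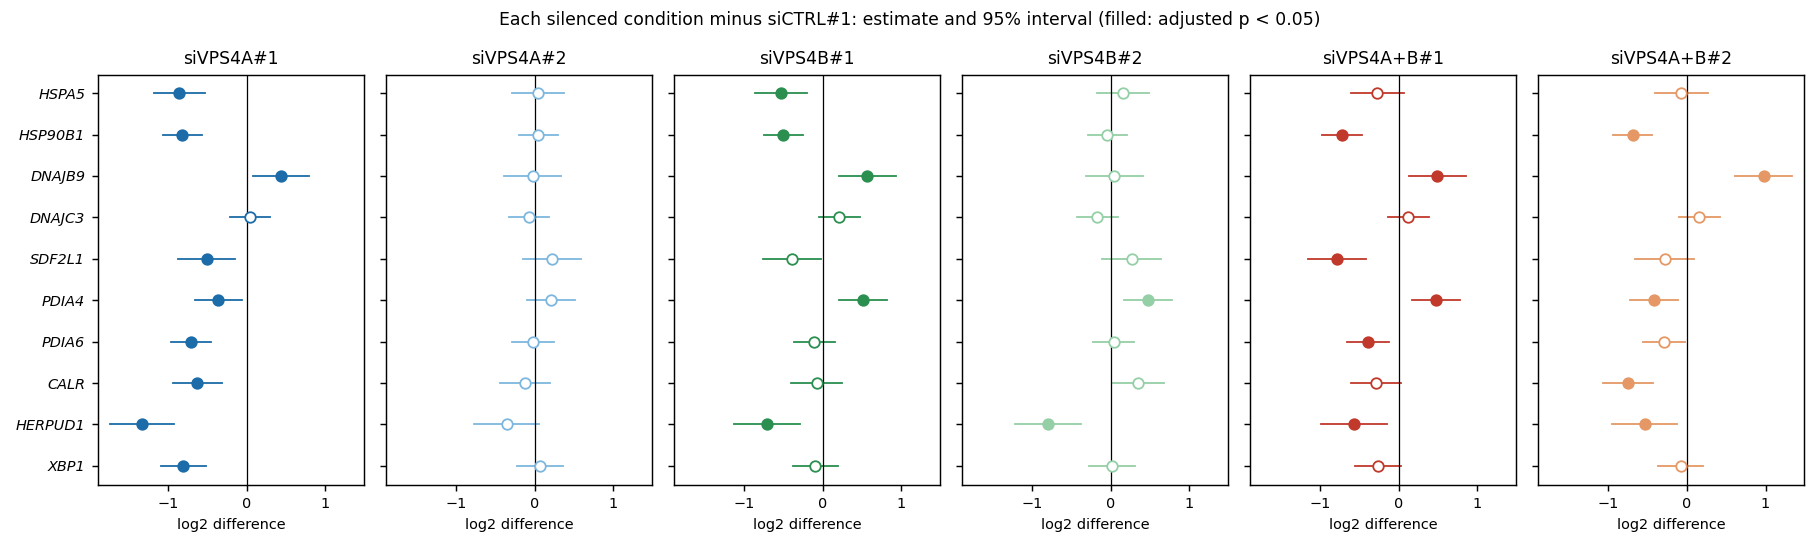
Log2 difference of each silenced condition minus siCTRL#1 (x axis) for the 10 genes (y axis), with the 95% interval of the estimate and filled symbols where the adjusted p was below 0.05. With siVPS4A#1 the symbols lie left of 0 for every gene except DNAJB9 and DNAJC3, and with siVPS4A#2 none is filled.

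Against NT, 8 of the 10 genes passed the test with siVPS4A#1 (37.5% of all genes), 2 with siVPS4A#2 (14.4%), 5 with siVPS4B#1 (36.5%), 4 with siVPS4B#2 (26.4%), 4 with siVPS4A+B#1 (40.4%) and 5 with siVPS4A+B#2 (45.3%). The 2 genes called with siVPS4A#2, SDF2L1 and PDIA4, were also the 2 that differed between siCTRL#1 and NT. The comparisons of the silenced conditions share their control libraries.

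**Figure D3:**
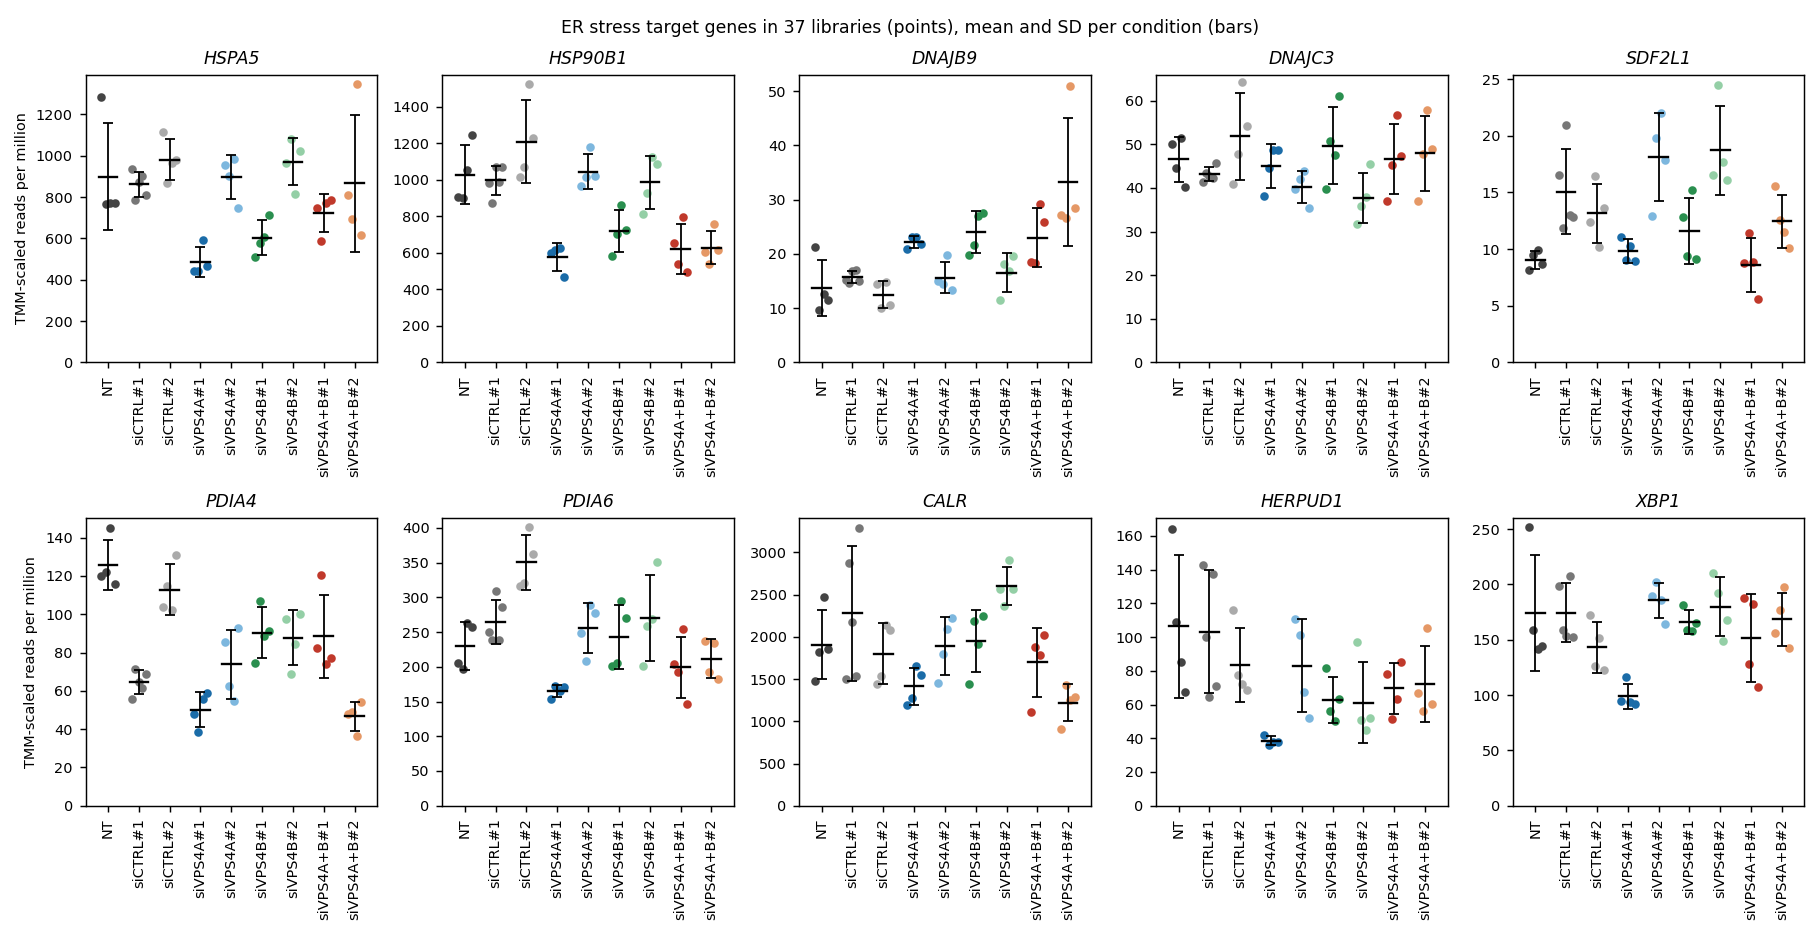
TMM-scaled RPM (y axis, from 0, own scale per gene) of the 10 genes in 37 libraries by condition (x axis), with each library as a point and the mean and SD of each condition in black. HSPA5, HSP90B1, PDIA6, HERPUD1 and XBP1 have their lowest mean in siVPS4A#1, and DNAJB9 its highest in siVPS4A+B#2.

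HSPA5 (NM_005347; GRCh37 chr9:127997132-128003661, minus strand) fell with 2 single duplexes and not with their alternatives. In the 5 siCTRL#1 libraries it was at 936, 785, 873, 901 and 811 RPM. With siVPS4A#1 it was at 443, 444, 592 and 465, and with siVPS4A#2 at 955, 903, 983 and 748. All siVPS4A#1 libraries lay below all siCTRL#1 libraries, whereas those of siVPS4A#2 overlapped them. The fall with siVPS4A#1 was 1.81-fold (log2 -0.86, SE 0.16, adjusted p = 4.56e-05), and the difference with siVPS4A#2 was 0.04 (95% interval -0.29 to 0.37).

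With siVPS4B#1, HSPA5 was at 511, 580, 607 and 715 RPM, a 1.45-fold fall against siCTRL#1 (log2 -0.53, SE 0.17, adjusted p = 0.0160). Without replicate 1 the call was lost (-0.43, adjusted p = 0.120). With siVPS4B#2 it was at 964, 1081, 814 and 1024, a difference of 0.15 (interval -0.18 to 0.49). The duplexes of each target differed from each other, by -0.90 for VPS4A (adjusted p = 0.000101) and by -0.69 for VPS4B (adjusted p = 0.00232).

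With both paralogs silenced, HSPA5 was at 747, 588, 769 and 785 in siVPS4A+B#1, and at 811, 691, 1346 and 615 in siVPS4A+B#2. Replicate 3 of siVPS4A+B#2 was the highest of all 37 libraries. The differences from siCTRL#1 were -0.27 (interval -0.61 to 0.06, adjusted p = 0.200) and -0.07 (interval -0.41 to 0.26, adjusted p = 0.751). Without that library the second became -0.30 (adjusted p = 0.123). The first passed against siCTRL#2 (-0.44, adjusted p = 0.0324) and, against siCTRL#1, with scaling to total reads (-0.45, adjusted p = 0.0263). In NT, replicate 1 was at 1286 and the others at 767, 772 and 772.

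HSP90B1 (NM_003299; GRCh37 chr12:104323885-104347709, plus strand) encodes GRP94, the ER's Hsp90. In siCTRL#1 it was at 982, 875, 1069, 986 and 1070 RPM, and in NT at 908, 901, 1054 and 1245. In siVPS4A+B#1 it was at 652, 537, 797 and 496, and in siVPS4A+B#2 at 602, 538, 755 and 616. All 8 libraries with both paralogs silenced lay below all 9 of these controls. The 4 differences (2 duplex pairs, 2 controls) ran from -0.74 to -0.69, a fall of 1.62- to 1.67-fold, with adjusted p of 1.63e-05 at most.

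HSP90B1 also fell with siVPS4A#1, at 600, 615, 628 and 465 RPM (1.77-fold, log2 -0.82, SE 0.12, adjusted p = 7.16e-07), and with siVPS4B#1, at 583, 705, 861 and 726 (1.42-fold, log2 -0.50, SE 0.12, adjusted p = 0.00242). The siVPS4B#1 call was lost without replicate 1 (-0.41, adjusted p = 0.0518). With siVPS4A#2 it was at 965, 1014, 1180 and 1017 and with siVPS4B#2 at 812, 926, 1124 and 1085. Those differences from siCTRL#1 were 0.05 (interval -0.20 to 0.30) and -0.04 (interval -0.29 to 0.21). The fall with siVPS4A+B#1 was not shown to exceed the sum of its single duplexes (interaction -0.27, adjusted p = 0.435). Compared with siVPS4B#1 alone, siVPS4A+B#1 differed by -0.22 (adjusted p = 0.252), and with siVPS4A#2 alone by -0.77 (adjusted p = 5.93e-06). Compared with siVPS4A#1 alone, siVPS4A+B#2 differed by 0.13 (adjusted p = 0.514), and with siVPS4B#2 alone by -0.65 (adjusted p = 7.01e-05).

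DNAJB9 (NM_012328; GRCh37 chr7:108210311-108215294, plus strand), the co-chaperone ERdj4, which promotes the degradation of unfolded proteins and binds IRE1, was the gene that rose. In siCTRL#1 it was at 15.2, 14.6, 16.9, 16.9 and 14.9 RPM. In siVPS4A+B#1 it was at 18.6, 18.3, 29.2 and 25.8, and in siVPS4A+B#2 at 27.1, 26.7, 50.9 and 28.4. Both sets lay above siCTRL#1 without overlap, by 1.40-fold (log2 0.49, SE 0.18, adjusted p = 0.0290) and 1.97-fold (log2 0.98, SE 0.18, adjusted p = 2.09e-05). The NT libraries were at 21.2, 9.61, 12.6 and 11.5, so NT replicate 1 overlapped siVPS4A+B#1.

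Against NT, DNAJB9 was higher by 0.73 with siVPS4A+B#1 (adjusted p = 0.00130) and by 1.22 with siVPS4A+B#2 (adjusted p = 7.67e-07). The smaller rise, siVPS4A+B#1 against siCTRL#1, was lost without replicate 3 (0.41, adjusted p = 0.144), without replicate 4 (0.46, adjusted p = 0.0965) and with scaling to total reads (0.32, adjusted p = 0.166). Replicate 3 of siVPS4A+B#2 stood apart from its group, and without it the second rise was 0.84 against siCTRL#1 (adjusted p = 0.000368). The 2 pairs also differed from each other, by 0.49 (adjusted p = 0.0402), which became 0.34 without that library (adjusted p = 0.191).

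Single silencing raised DNAJB9 with the same 2 duplexes that lowered HSPA5. In siVPS4B#1 it was at 19.8, 21.6, 27.1 and 27.5 RPM (log2 0.56, SE 0.18, adjusted p = 0.0188) and in siVPS4A#1 at 20.9, 23.2, 23.1 and 21.9 (log2 0.44, SE 0.18, adjusted p = 0.0469). Without replicate 2, 3, 4 or 5 the siVPS4A#1 call was lost (0.43 to 0.46, adjusted p = 0.0644 to 0.112), and without replicate 2, 3 or 4 the siVPS4B#1 call was (0.53 to 0.57, adjusted p = 0.0616 to 0.0808). In siVPS4A#2 it was at 15.0, 14.4, 19.7 and 13.4 and in siVPS4B#2 at 11.5, 18.2, 16.8 and 19.6, with differences of -0.02 and 0.04. At these levels DNAJB9 rested on 73 to 318 reads a library. Compared with siVPS4B#1 alone, DNAJB9 in siVPS4A+B#1 differed by -0.08 (adjusted p = 0.835), and with siVPS4A#2 alone by 0.51 (adjusted p = 0.0247). Compared with siVPS4A#1 alone, siVPS4A+B#2 was higher by 0.54 (adjusted p = 0.0321), and with siVPS4B#2 alone by 0.94 (adjusted p = 7.39e-05).

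DNAJC3 (NM_006260; GRCh37 chr13:96329393-96447242, plus strand), the co-chaperone P58IPK, an inhibitor of PERK, passed the test in none of the 6 comparisons with siCTRL#1. Its condition means lay between 37.7 RPM in siVPS4B#2 and 51.8 in siCTRL#2, and all neighbouring conditions in this order overlapped. The differences from siCTRL#1 ran from -0.17 with siVPS4B#2 (interval -0.43 to 0.09) to 0.21 with siVPS4B#1 (interval -0.05 to 0.47). The VPS4B duplexes differed from each other by 0.38 (adjusted p = 0.0267), a call lost without the block (adjusted p = 0.0633) and without replicate 1, 2, 3 or 4 (0.35 to 0.40).

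SDF2L1 (NM_022044; GRCh37 chr22:21996591-21998588, plus strand), a lumenal protein that works with ERdj3 and BiP, differed between the controls. In NT it was at 8.12, 9.49, 9.94 and 8.73 RPM, and in siCTRL#1 at 16.5, 11.9, 21.0, 13.0 and 12.9. The NT and siCTRL#1 libraries did not overlap, and siCTRL#1 was 1.61-fold higher (log2 0.69, SE 0.18, adjusted p = 0.00711), a call lost without replicate 1 (0.60, adjusted p = 0.0698) or replicate 3 (0.61, adjusted p = 0.0564).

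With siVPS4A+B#1, SDF2L1 was at 8.73, 11.4, 8.83 and 5.57 RPM, a range that overlapped that of NT. It was 1.73-fold lower than siCTRL#1 (log2 -0.79, SE 0.18, adjusted p = 0.000738) and differed from NT by -0.10 (interval -0.48 to 0.28). With siVPS4A+B#2 it was at 15.6, 12.6, 11.5 and 10.1, and the difference from siCTRL#1 was -0.29 (interval -0.66 to 0.08). In siVPS4A#1 it was at 11.1, 9.03, 10.3 and 8.92, a log2 difference of -0.51 (SE 0.18, adjusted p = 0.0230), lost without replicate 3 (-0.33, adjusted p = 0.218), 1 (-0.52) or 5 (-0.50). It rested on 38 to 238 reads a library.

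PDIA4 (NM_004911; GRCh37 chr7:148700154-148725754, minus strand), also called ERp72, and PDIA6 (NM_005742; GRCh37 chr2:10923517-10978103, minus strand), also called P5, are protein disulfide isomerases. PDIA4 depended on which control was used. In NT it was at 120, 122, 145 and 116 RPM, in siCTRL#2 at 104, 115, 102 and 131, and in siCTRL#1 at 55.6, 71.6, 64.7, 61.7 and 68.9. Every siCTRL#1 library was below every library of the other controls, 1.99-fold lower than NT (log2 -0.99, SE 0.15, adjusted p = 9.34e-06), and siCTRL#2 was 1.79-fold higher than siCTRL#1 (log2 0.84, SE 0.15, adjusted p = 3.40e-05).

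With siVPS4A+B#1, PDIA4 was at 82.2, 120, 73.9 and 77.2 RPM. It was higher than siCTRL#1 (log2 0.47, SE 0.15, adjusted p = 0.0128) and lower than NT (log2 -0.53, SE 0.15, adjusted p = 0.00580), and it differed from siCTRL#2 by -0.37 (adjusted p = 0.0507). The same turn of sign held for siVPS4B#1 (0.51 against siCTRL#1, -0.48 against NT) and siVPS4B#2 (0.47 and -0.52), all past the test. The rise of siVPS4A+B#1 over siCTRL#1 was lost with scaling to total reads (0.29, adjusted p = 0.140) and without replicate 1 (0.45, adjusted p = 0.0515) or 2 (0.37, adjusted p = 0.0692), and its fall from NT without replicate 3 (-0.38, adjusted p = 0.0973). The siVPS4B calls were lost without replicate 1 or 3 against NT for siVPS4B#1 (-0.41 each), without replicate 2 or 3 against NT for siVPS4B#2 (-0.42 and -0.44), and without replicate 1, 3 or 4 against siCTRL#1 for siVPS4B#2 (0.38 to 0.50).

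The 2 conditions that contain siVPS4A#1 were lowest. In siVPS4A+B#2 PDIA4 was at 47.7, 48.9, 36.2 and 54.3 RPM, and in siVPS4A#1 at 48.0, 38.4, 55.7 and 58.8. Against NT these were 2.67-fold (log2 -1.42, SE 0.15, adjusted p = 8.62e-10) and 2.56-fold lower (log2 -1.36, SE 0.16, adjusted p = 9.08e-09). Against siCTRL#1 they were -0.42 (adjusted p = 0.0204) and -0.36 (adjusted p = 0.0494). The first was -0.32 without replicate 3 of siVPS4A+B#2 (adjusted p = 0.116), and the second passed in 3 of 16 alternatives.

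PDIA6 was at 251, 238, 309, 239 and 286 RPM in siCTRL#1 and at 153, 172, 165 and 171 in siVPS4A#1, with no overlap. The fall was 1.63-fold (log2 -0.71, SE 0.13, adjusted p = 2.31e-05). In siVPS4A+B#1 it was at 204, 193, 254 and 147 (log2 -0.40, SE 0.13, adjusted p = 0.0152; -0.29 and 0.0774 without replicate 4), and in siVPS4A+B#2 at 237, 193, 235 and 183 (log2 -0.29, adjusted p = 0.0633). Against NT the 2 combined conditions differed by -0.22 and -0.12, neither past the test. The siCTRL#2 libraries, at 316, 321, 402 and 363, were above all siCTRL#1 libraries (0.43, adjusted p = 0.0107).

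CALR (NM_004343; GRCh37 chr19:13049392-13055303, plus strand) encodes calreticulin, a calcium-binding lectin chaperone. In siCTRL#1 it was spread widely, at 1503, 2877, 2180, 1541 and 3292 RPM. In siVPS4A+B#2 it was at 913, 1429, 1247 and 1290, below all of these (1.69-fold, log2 -0.75, SE 0.16, adjusted p = 0.000144) and below NT, at 1483, 1820, 2472 and 1860 (log2 -0.64, SE 0.16, adjusted p = 0.00134). With siVPS4A+B#1 it was at 1107, 1884, 1780 and 2027, and the difference from siCTRL#1 was -0.29 (adjusted p = 0.143). The 2 pairs differed from each other by -0.46 (adjusted p = 0.0288), a call lost without the block (adjusted p = 0.115) and without replicate 1, 2, 3 or 4 (-0.51 to -0.40).

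With siVPS4A#1, CALR was at 1188, 1276, 1655 and 1548 RPM (log2 -0.63, SE 0.16, adjusted p = 0.00126 against siCTRL#1). With siVPS4B#2 it was at 2565, 2360, 2908 and 2567, the highest condition mean, higher than NT by 0.47 (adjusted p = 0.0289; 0.117 without the block, 0.208 without replicate 1), while the difference from siCTRL#1 was 0.35 (interval 0.03 to 0.67, adjusted p = 0.135). The VPS4B duplexes differed by -0.43 (adjusted p = 0.0451; 0.157 without the block, 0.305 without replicate 1).

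HERPUD1 (NM_014685; GRCh37 chr16:56966054-56978776, plus strand), a membrane component of the ER-associated degradation machinery, had the largest fall of the 10 with siVPS4A#1 against siCTRL#1, whereas against NT PDIA4 did. It was at 143, 100, 64.2, 137 and 71.1 RPM in siCTRL#1 and at 42.2, 36.1, 38.0 and 37.9 in siVPS4A#1. The siVPS4A#1 libraries were below those of every other condition, by 2.51-fold against siCTRL#1 (log2 -1.33, SE 0.20, adjusted p = 1.19e-06).

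HERPUD1 was also lower with siVPS4B#1, at 81.7, 56.0, 50.5 and 63.2 RPM (log2 -0.71, SE 0.21, adjusted p = 0.00966), and with siVPS4B#2, at 97.2, 50.6, 44.8 and 52.1 (log2 -0.80, SE 0.21, adjusted p = 0.00753). These ranges overlapped that of siCTRL#1. It was the only one of the 10 called lower with both VPS4B duplexes, and the duplexes differed from each other by 0.09 (interval -0.34 to 0.51). With siVPS4A#2 it was at 111, 101, 67.7 and 52.3 (log2 -0.36, interval -0.77 to 0.06, adjusted p = 0.859).

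With both paralogs silenced, HERPUD1 was at 78.1, 51.7, 63.2 and 85.3 RPM in siVPS4A+B#1 and at 66.8, 56.4, 106 and 60.1 in siVPS4A+B#2. The 4 differences from both controls ran from -0.57 to -0.52 (largest adjusted p = 0.0429), and the ranges overlapped those of both controls. In NT it was at 164, 109, 85.0 and 67.2. These 4 calls were weak: without the block the adjusted p were 0.109 and 0.118 against siCTRL#1 and 0.0957 and 0.109 against NT, and without NT replicate 1 the differences from NT were -0.44 and -0.39 (adjusted p = 0.129 and 0.165). Without replicate 1 none of the 4 passed (-0.49 to -0.25), and without replicate 2 none did (-0.45 to -0.38). Without replicate 4 the call of siVPS4A+B#2 against siCTRL#1 was lost (-0.34, adjusted p = 0.189). Without replicate 3 of siVPS4A+B#2, the differences of that pair were -0.80 from each control.

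XBP1 (NM_001079539; GRCh37 chr22:29190543-29196585, minus strand) encodes the transcription factor that IRE1 activates by splicing its mRNA. The table gives 1 value for the gene, so the spliced share was not analysed here. Against siCTRL#1 and NT, the silenced condition in which it passed the test was siVPS4A#1, at 95.0, 116, 93.4 and 91.5 RPM, against 199, 159, 154, 207 and 152 in siCTRL#1 (1.75-fold lower, log2 -0.81, SE 0.14, adjusted p = 1.51e-05) and 252, 159, 141 and 144 in NT (log2 -0.74, adjusted p = 0.000190). The siVPS4A#1 libraries were below all libraries of the controls and of the other single duplexes, and 1 siVPS4A+B#1 library, at 108, overlapped them. With siVPS4A#2 it was higher than siCTRL#2 (log2 0.38, adjusted p = 0.0477). With siVPS4A+B#1 and siVPS4A+B#2 the differences from siCTRL#1 were -0.26 (interval -0.56 to 0.03) and -0.08 (interval -0.37 to 0.21).

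The study's rule asks that a gene pass the test with a fold change of at least 1.5 in both combined conditions against both siCTRL#1 and NT. By the test alone, in 1 direction in all 4 comparisons, DNAJB9 was higher, where 7.19% of all genes were, and HSP90B1 and HERPUD1 were lower, where 7.14% were. By the study's rule, with the fold change in each comparison, 0 of the 10 were higher (3.96% of all genes) and HSP90B1 alone was lower (4.16%). PDIA4 passed all 4 comparisons but not in 1 direction. With edgeR and with DESeq2 on the recovered reads, DNAJB9 and HSP90B1 passed all 4 and HERPUD1 did not. DNAJB9 no longer passed all 4 without replicate 3 or 4.

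**Figure D4:**
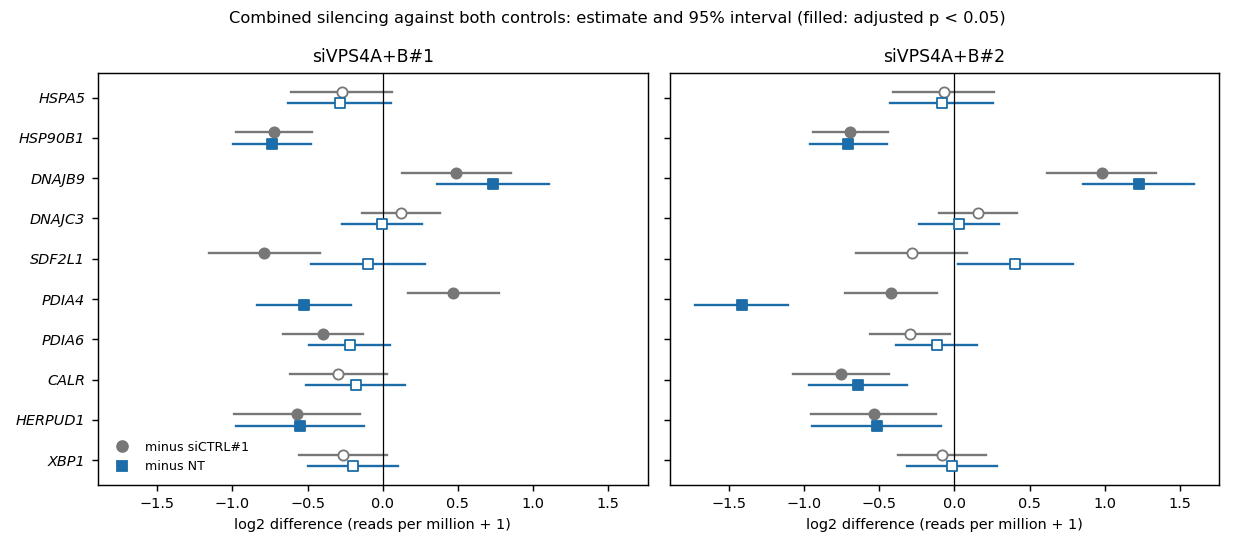
Log2 difference (x axis) of siVPS4A+B#1 (left) and siVPS4A+B#2 (right) minus siCTRL#1 (grey circles) and minus NT (blue squares), with 95% intervals and filled symbols where the adjusted p was below 0.05. The circles and squares of HSP90B1 coincide near -0.7, whereas those of PDIA4 in siVPS4A+B#1 lie on opposite sides of 0.

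The controls also differed from each other in some of the genes, and the counts below do not set the 10 apart from all genes. Between siCTRL#1 and NT, 2 of the 10 passed the test, SDF2L1 and PDIA4, where 17.1% of all genes did. Between siCTRL#2 and siCTRL#1, 2 of the 10 passed, PDIA4 and PDIA6, where 29.1% of all genes did.

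The duplexes against 1 target gave unlike results. Between siVPS4A#1 and siVPS4A#2, 8 of the 10 genes differed, all lower with siVPS4A#1 (33.2% of all genes differed). Mean VPS4A mRNA was 2.18 ± 0.895 (SD, n = 4) RPM with siVPS4A#1 and 7.88 ± 2.22 with siVPS4A#2. Between siVPS4B#1 and siVPS4B#2, 6 differed (25.3% of all genes): HSPA5, HSP90B1, SDF2L1 and CALR were lower with siVPS4B#1, and DNAJB9 and DNAJC3 were higher. Mean VPS4B mRNA was 0.433 ± 0.335 with siVPS4B#1 and 1.07 ± 0.361 with siVPS4B#2. Between siVPS4A+B#2 and siVPS4A+B#1, 4 differed (29.4% of all genes): DNAJB9 and SDF2L1 were higher with siVPS4A+B#2, and PDIA4 and CALR were lower. Of the 6 and the 4, 3 and 1 passed without the block. PDIA4 was the 1, and it passed in every alternative, while the count of the 4 was 1 without replicate 3 and 2 without replicate 1, 2 or 4 or siVPS4A+B#2 replicate 3. The 6 became 3 without replicate 1 or 3. The part of the residual target mRNA in these differences was not tested.

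The interaction compared each combined condition with the sum of its single duplexes. For siVPS4A+B#1, 0 of the 10 genes passed the test (6.34% of all genes), 1 did at an unadjusted p below 0.05 (SDF2L1, -0.61), and edgeR and DESeq2 called 0. For siVPS4A+B#2, 2 of the 10 passed (19.7% of all genes). They were HERPUD1 (1.59, SE 0.29, adjusted p = 0.000108) and XBP1 (0.71, SE 0.21, adjusted p = 0.0113), both low with siVPS4A#1 alone and closer to the controls when siVPS4B#2 was added. HERPUD1 was 1.73-fold and XBP1 1.65-fold higher in siVPS4A+B#2 than in siVPS4A#1 (log2 0.79 and 0.72, adjusted p = 0.00627 and 0.000461). HSPA5 was also higher there, by 1.72-fold (log2 0.79, adjusted p = 0.000856), with an interaction of 0.63 (adjusted p = 0.0520). Without replicate 3 of siVPS4A+B#2 the interactions were 1.27 for HERPUD1 (adjusted p = 0.000801) and 0.60 for XBP1 (adjusted p = 0.0450), and without replicate 2 or 4 the 2 genes became 5 and 4. In contrast, HSP90B1 differed between these conditions by 0.13 (interval -0.14 to 0.40).

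The order of the condition means differed between the genes. HSPA5 ran from 981 RPM in siCTRL#2 to 486 in siVPS4A#1, HSP90B1 from 1209 to 577, PDIA6 from 350 to 165 (the same 2 conditions), HERPUD1 from 106 in NT to 38.6 in siVPS4A#1, and XBP1 from 185 in siVPS4A#2 to 99.0 in siVPS4A#1. DNAJB9 ran from 33.3 in siVPS4A+B#2 to 12.4 in siCTRL#2, PDIA4 from 126 in NT to 46.8 in siVPS4A+B#2, CALR from 2600 in siVPS4B#2 to 1220 in siVPS4A+B#2, and SDF2L1 from 18.7 in siVPS4B#2 to 8.63 in siVPS4A+B#1. Nearly all neighbours in these orders overlapped. The exceptions were siCTRL#1 and siVPS4A+B#1 for HSPA5, siVPS4A#1 and siVPS4B#2 for DNAJB9, siVPS4B#2 and siVPS4A#1 for HERPUD1, and siCTRL#2 and siVPS4A#1 for XBP1. For HSPA5 this was nearly a tie, with the lowest siCTRL#1 library at 785.367 RPM and the highest siVPS4A+B#1 library at 785.341. That difference did not pass the test (limma, adjusted p = 0.200).

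The 5 genes whose condition means were most like those of HSPA5 were not on any of the ER lists. Over the 9 condition means on the log2 scale, Pearson's r was 0.968 for CDK2, 0.964 for XPO4, 0.957 for NUP205, 0.956 for CYB5R2 and 0.950 for RFWD3. Among the other 9 ER stress targets r was highest for HSP90B1 (0.789), PDIA6 (0.761), HERPUD1 (0.734) and XBP1 (0.721) and lowest for DNAJB9 (-0.566). The points share their libraries and are given as a description.

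The remaining genes of ER folding, degradation and export followed the 10 with siVPS4A#1 only in part. Of the 61 other ER genes measured, 19 were lower and 5 higher with siVPS4A#1 against siCTRL#1 (median -0.23), beside 19.3% and 17.7% of all genes. Of the 11 other disulfide isomerases and oxidases, 7 were lower, and of the 12 other lumenal chaperones and co-chaperones, 4 were lower and 1 higher. The 17 translocon and export genes had 3 lower, and the 15 genes of ER-associated degradation had 3 lower and 3 higher.

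In all 4 comparisons of combined silencing, 3 of the 61 were lower and 2 higher, beside 7.14% and 7.19% of all genes, so these counts do not set the ER genes apart. CRELD2 and MANF, lumenal proteins induced by ER stress, were lower (mean log2 over the 4 of -0.93 and -0.57), as was the thioredoxin-like TXNDC12 (-0.49). DERL1 and SYVN1, which form the channel and the ubiquitin ligase of ER-associated degradation, were higher (0.55 and 0.42). Each of these genes also passed the test in the same direction with a single duplex against siCTRL#1. With siVPS4A#1, CRELD2, MANF, TXNDC12 and DERL1 differed by -0.93, -1.07, -0.98 and 0.38. With siVPS4B#1, MANF, TXNDC12, DERL1 and SYVN1 differed by -0.51, -0.58, 0.51 and 0.45. With siVPS4B#2, CRELD2 and TXNDC12 differed by -0.87 and -0.58. None of these genes passed with siVPS4A#2. CRELD2 fell from 72.9 ± 16.2 (SD, n = 5) RPM in siCTRL#1 to 43.2 ± 4.26 (n = 4) in siVPS4A+B#1 and 27.0 ± 1.53 (n = 4) in siVPS4A+B#2.

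Of the 6 sensors and proteases, MBTPS1, the Golgi protease that first cleaves ATF6, was higher than siCTRL#1 with both pairs (0.85 and 1.31, adjusted p = 5.22e-05 and 1.32e-08). It was itself lower in siCTRL#1 than in NT (-0.94, adjusted p = 5.08e-05), and the lowest of its 4 differences was -0.09. EIF2AK3 was higher than siCTRL#1 by 0.81 and 0.49 (adjusted p = 0.000351 and 0.0220), but did not pass all 4 comparisons (lowest difference 0.30, largest adjusted p = 0.176). For ERN1 the 2 differences were 0.07 and -0.27, and for ATF6 -0.03 and -0.22, with adjusted p of 0.256 or more. ATF6B differed by 0.39 (adjusted p = 0.0285) and -0.24 (adjusted p = 0.176), and MBTPS2 by -0.08 and -0.34 (adjusted p = 0.739 and 0.0803). With siVPS4A#1 alone, ATF6B and MBTPS2 were lower than siCTRL#1 (-0.93 and -0.47, adjusted p = 1.1e-06 and 0.0149). MBTPS1 was higher there (0.72, adjusted p = 0.000347).

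Of the 10 genes of the PERK and ATF4 arm, 7 were lower than siCTRL#1 with siVPS4A#1 (median -1.24, 19.3% of all genes lower), 6 with siVPS4B#1 (11.7%) and 4 with siVPS4B#2 (7.77%). ASNS, asparagine synthetase, was at 208 ± 128 (SD, n = 5) RPM in siCTRL#1 and at 21.6 ± 12.6 (n = 4) in siVPS4A#1 (log2 -3.17, adjusted p = 2.54e-13). TRIB3, CHAC1 and ATF4 itself were also lower there (log2 -3.02, -3.17 and -1.33, adjusted p = 1.06e-11, 5.21e-10 and 2.72e-07). CHAC1 and NUPR1 were themselves higher in siCTRL#1 than in NT (log2 1.17 and 1.38, adjusted p = 0.0140 and 0.00253). Both were among the genes called lower with siVPS4B#2. Their means there, 113 ± 146 (SD, n = 4) and 5.55 ± 7.34 RPM, stood above those of NT (80.7 and 4.19). The siVPS4B#2 libraries were spread widely, from 22.7 to 332 for CHAC1 and from 1.35 to 16.5 for NUPR1. Their lowest values lay below the lowest NT libraries (33.4 and 1.86), so these means do not place siVPS4B#2 above NT. With siVPS4A#1 the means of CHAC1 and NUPR1, 18.1 and 0.940, were below those of NT.

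With both paralogs silenced, genes of this arm moved in both directions. The stress-induced factor ATF3 was higher in all 4 comparisons (1.61 to 2.31, largest adjusted p = 1.97e-06), at 26.0 ± 4.07 (SD, n = 5) in siCTRL#1, 87.5 ± 26.4 (n = 4) in siVPS4A+B#1 and 141 ± 53.4 (n = 4) in siVPS4A+B#2. With siVPS4B#1 alone ATF3 was lower than siCTRL#1 (-1.35, adjusted p = 6.82e-05). SESN2 was also higher (mean 0.87), whereas ASNS was lower (mean -1.15). DDIT3, which encodes CHOP, was at 0.197 RPM on average in siCTRL#1, under the level of 3 reads, and its change could not be read at this depth.

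Among the 9 cytosolic heat shock genes measured, 6 were higher than siCTRL#1 with siVPS4A+B#2 (21.6% of all genes higher), 2 higher and 1 lower with siVPS4A+B#1 (18.3% and 18.7%), and 4 higher and 1 lower with siVPS4A#1 (17.7% and 19.3%). BAG3 and HSPA8, a co-chaperone and the constitutive cytosolic Hsp70, were higher in all 4 comparisons of combined silencing (mean 0.53 and 0.49). Both were also higher than siCTRL#1 with siVPS4A#1 alone (0.48 and 0.36, adjusted p = 0.00904 and 0.0299), and neither passed with another single duplex.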

How the data were processed

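Total RNA of 38 HCT116 samples was amplified by the authors with an Ion AmpliSeq Transcriptome panel of 1 amplicon a gene, sequenced on an Ion Proton, aligned to the panel's hg19 transcripts with TMAP and counted with HTSeq-count 0.6.0. The authors deposited, as signal, each gene's fraction of a library's reads over 12627 genes, so that a library sums to 1. The authors' own tests used DESeq2 1.18.1.

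Low values are whole multiples of 1 read. Whole reads were recovered with a tolerance of 0.1 read: 48.4% of the values were printed finely enough to be placed, and 100% of these were whole. Reads were scaled with TMM factors (0.881 to 1.10) and tested, with a pseudocount of 1, with limma 3.58.1 (moderated test, intensity trend, 2-sided) on 9 conditions and the replicate number over 37 libraries. Because the values are normalized, edgeR 4.0.16 (quasi-likelihood) and DESeq2 1.42.0 on the recovered reads were alternatives. For siVPS4A+B#1 against siCTRL#1 they called 4565 and 4596 genes, limma 4678. With scaling to total reads, the share of higher genes among those called there went from 2313 of 4678 to 1428 of 5071, and for siVPS4A+B#2 from 2732 of 5706 to 2009 of 5795. That scaling moved the median of all genes by -0.14 and -0.11.

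Fold changes on log2(RPM + 1) understate changes of low genes. Per the labels, each replicate number is 1 batch letter, which pairs the libraries. Residuals correlated by 0.170 on average over 137 same-numbered pairs and by -0.0782 over 529 others. The study describes its RNA-Seq replicates as independent experiments, and the labels do not say whether they were separate cultures, so p-values measure the spread between these libraries. Symbols were matched for 12474 of the 12627 RefSeq identifiers. An amplicon panel does not give levels comparable between genes. Fewer cells and less RNA per cell cannot be told apart in bulk samples.

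The members and lists were chosen with earlier results of these data known. All 10 genes were named. From the other lists, genes past the test in 1 direction in all 4 combined comparisons were named (at most 3 a list, by mean difference), and any of the sensors and of the PERK and ATF4 arm. Scripts were tested on simulated data. Alternatives were no block, other scaling, pseudocount 0.1, a filter at 1 RPM, the compared conditions only, the left-out library, leaving out each replicate number, and siCTRL#2 as control. Leaving out NT replicate 1 or siVPS4A+B#2 replicate 3 was added after seeing the data.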

Additional observations from a re-analysis of the deposited data

Results flagged for a closer look

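In 90 groups of 4 or 5 libraries, 6 had a highest library that stood apart from its group by Dixon's criterion, which chance meets in about 1 in 20 groups. In NT, replicate 1 was at 1286 RPM for HSPA5 (the others 767 to 772) and at 252 for XBP1 (the others 141 to 159). In siVPS4A+B#2, replicate 3 was at 50.9 for DNAJB9 (the others 26.7 to 28.4). In siVPS4A#1, replicate 4 was at 592 for HSPA5 (the others 443 to 465) and replicate 3 at 116 for XBP1 (the others 91.5 to 95.0). In siVPS4B#2, replicate 1 was at 97.2 for HERPUD1 (the others 44.8 to 52.1).

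For HERPUD1 and XBP1 the effect of siVPS4A#1 differed with and without siVPS4B#2, by an interaction of 1.59 (adjusted p = 0.000108) and 0.71 (adjusted p = 0.0113) on the log2 scale in limma.

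The left-out library labelled siVPS4A#1 held DNAJB9 at 22.7 RPM (14 reads), above the highest control library (21.2). It held DNAJC3 at 51.8 (32 reads), above the highest NT and siCTRL#1 library (51.4) but within the range of siCTRL#2, which reached 64.4. HSPA5 in it was at 821 (507 reads), within the siCTRL#1 range of 785 to 936. HSP90B1 was at 463 (286 reads), below the lowest siCTRL#1 library (875).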

How the results depend on the processing

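Over 1357 comparisons of a single gene's difference with its value under an alternative, 1207 kept their direction and side of the threshold, 141 kept the direction but were no longer past it, 2 newly passed (HSPA5 in siVPS4A+B#1, with total reads, -0.45, and against siCTRL#2, -0.44) and 7 changed sign. HSPA5 in siVPS4A+B#2 changed sign against siCTRL#1 with DESeq2 on recovered reads (0.0026) and without replicate 4 (0.10; range on leaving out libraries -0.30 to 0.10), and against NT without replicate 1 (0.12) or NT replicate 1 (0.10; range -0.37 to 0.12), never past the test. PDIA4 changed sign with siCTRL#2 as the control, to -0.32 (siVPS4B#1), -0.37 (siVPS4B#2) and -0.37 (siVPS4A+B#1). The cause was not tested.

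With siCTRL#2 as the control, 4 of the 10 genes passed with siVPS4A#2 (0 against siCTRL#1) and 4 with siVPS4B#2 (2 against siCTRL#1), where 3639 and 4302 of all 12627 genes did. Against siCTRL#1, the count of 2 for siVPS4B#2 was 1 without the replicate block, with total reads, with the compared conditions only and with the left-out library. Without the replicate block, 3 in place of 6 genes differed between the VPS4B duplexes, 1 in place of 4 between the combined pairs and 1 in place of 2 was lower in all 4 combined comparisons, and 17 of 83 single values were no longer past the threshold. The count between the combined pairs was also 1 with the compared conditions only and 2 with the left-out library. The interaction count for siVPS4A+B#2 was 4 with total reads. In all 4 combined comparisons, 0 genes were higher with total reads or a 1.5-fold minimum, and 1 was lower with DESeq2 size factors, edgeR, DESeq2, the compared conditions only, the left-out library or a 1.5-fold minimum.

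Leaving out replicates gave 3 to 5 genes for siVPS4B#1, 0 to 3 for siVPS4B#2 and 3 to 5 for siVPS4A+B#2 against siCTRL#1, 2 to 5 for siVPS4B#1 and 1 to 5 for siVPS4B#2 against NT, 1 to 3 between siCTRL#1 and NT, 3 to 6 between the VPS4B duplexes, 1 to 4 between the combined pairs, 2 to 5 for the siVPS4A+B#2 interaction, and 0 to 1 higher and 1 to 2 lower in all 4 combined comparisons. Depth limits SDF2L1 and DNAJB9 most, at 38 and 73 reads in their lowest libraries.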
